A study of Mus musculus with 6 samples.

Results

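Transcripts of 8 spindle assembly checkpoint genes were followed in oocytes of aged females (AF): *Ttk*, *Bub1*, *Bub3*, *Bub1b*, *Mad1l1*, *Mad2l1*, *Zw10* and *Cenpe*. They were chosen by their names, with earlier results of these data known, and all 8 were found among the 25899 genes of the table. The libraries came from oocytes of 58-week-old CD1 females, collected at the germinal vesicle stage after hormonal stimulation and cultured for 180 minutes without the inhibitor IBMX, so that the nuclear envelope broke down (NEBD). The study's methods name the strain as ICR and give the aged females a slightly lower age, in months. Each sample held 200 pooled oocytes exposed to cycloheximide, which holds ribosomes on mRNA, at 0.1 mg/ml. A sucrose gradient split each lysate into 10 fractions, and these were pooled into polysomal RNA (P, 3 libraries) and non-polysomal RNA with free mRNA and monosomes (NP, 3 libraries). All 6 libraries share the age, strain, stage and drug, and oocytes of young females were not analysed here.

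The checkpoint delays anaphase until every kinetochore, the protein platform of the centromere, is attached to spindle microtubules. The kinase TTK (also called MPS1) starts the signal, BUB1 and BUB3 dock on the kinetochore, and MAD1 with the ROD-ZW10-ZWILCH complex brings MAD2 there. MAD2, BUBR1 (the product of *Bub1b*) and BUB3 then bind CDC20 and hold back the anaphase promoting complex (APC/C), the ubiquitin ligase that marks cyclin B and securin for destruction. Fully grown oocytes do not transcribe, so the proteins made after NEBD come from stored mRNA, and cytoplasmic polyadenylation elements near the 3′ end of an mRNA are known to control when such mRNA is translated.

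Because these elements bear on polysome loading, the last 150 bases of the annotated 3′ untranslated region of each gene were searched on the sense strand for the letters TTTTAT and TTTTAAT. The letters of TTTTAAT can overlap those of the poly(A) signal AATAAA. One or more were present in 4 of the 8 genes, *Bub1b*, *Mad2l1*, *Ttk* and *Cenpe*, and in 3 of the 7 that passed the filter on low values (all but *Cenpe*), against 24.1% of the 8821 genes that passed it and have such a region. *Bub1b* and *Cenpe* each held 2 matches. For each gene the last match before the poly(A) signal, or otherwise the last match, is shown with the motif in capitals in 30 bases of GRCm38, read 5′ to 3′ on the strand of the gene (plus for all 4).
*Bub1b*, chr2:118641553-118641582: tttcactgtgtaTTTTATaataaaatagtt
*Mad2l1*, chr6:66540962-66540991: tgtaataaagaactcttaTTTTAATgtttt
*Ttk*, chr9:83872270-83872299: gttgtgcttttcTTTTATgcttttctgtaa
*Cenpe*, chr3:135273475-135273504: ttaattatttatTTTTATacattgcgaaga
In *Bub1b* the motif started 6 bases before the start of AATAAA, in *Cenpe* 17 bases and in *Ttk* 79 bases before it, while in *Mad2l1* it followed AATAAA. No match was present in *Bub3*, *Bub1*, *Mad1l1* or *Zw10*. For *Bub3*, which is set against *Bub1b* in the results, the poly(A) signal is shown in capitals.
*Bub3*, chr7:131571859-131571888, plus strand: atttgcctgtttATTAAAgttacctttgct
A match says only that the letters are there. Genes with a match had a median log2 ratio (P over NP) of -0.86, and those without had -1.09.

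Values are FPKM, reads scaled to exon length and to mapped reads. The exon lengths used are not given, so levels of different genes set side by side within a library are approximate. In GENCODE M21, all exons together sum to 7006 bases for *Bub3* and 8390 for *Mad2l1*, against 2218 and 1725 in the transcript used for the 3′ end. For *Bub1b* these were 4275 and 3668. A length shared by all libraries leaves comparisons of P with NP as they are. FPKM values are relative to the reads of each fraction and give no share of molecules on polysomes. Depth was estimated from the steps between low values and ranged from 163552 reads in P replicate 1 to 18072826 in NP replicate 2. For 2 kb of exons, 3 reads were worth 9.17, 1.32 and 0.969 FPKM in P replicates 1, 2 and 3. A 0 in P replicate 1 therefore does not show that a gene at a few FPKM was absent. FPKM summed to between 246182 and 393876 over the genes of the P libraries and to between 597261 and 633110 in NP. All 10 oocyte marker genes, such as *Zp3* and *Gdf9*, were above 0 in every library, with sums of 10925 to 13542 FPKM in NP and 4979 to 13616 in P. Of 10 granulosa and cumulus markers, 7 were listed at 0 in all 6 libraries, among them *Fshr*, *Amh* and *Foxl2*. The exception in level was *Cyp19a1*, at 7.15, 22.5 and 104 FPKM in NP replicates 1 to 3 and at 15.4 in P replicate 1; its part in the results was not tested. The sum of this list was 7.15 to 104 FPKM in NP and 0 to 15.4 in P. Of the 5 blood and immune markers found, 4 were at 0 throughout and *Cd68* was at 0.643 FPKM in NP replicate 1.

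Among the checkpoint genes, *Bub1b* and *Bub3* had the highest means in both fractions, and *Bub1* and *Cenpe* the lowest. Within libraries, *Bub3* was above *Bub1b* in NP replicate 3, and *Ttk* was above *Bub3* in P replicate 2. *Bub1b* and *Bub3* together made up 75.7% to 88.03% of the FPKM summed over the 8 genes in NP and 83.1% to 91.7% in P. In NP the order of means was *Bub1b*, *Bub3*, *Ttk*, *Mad1l1*, *Mad2l1*, *Zw10*, *Bub1*, *Cenpe*. Ranges of neighbours did not overlap between *Bub3* and *Ttk* and between *Mad1l1* and *Mad2l1*. The other neighbours overlapped. In P the order was *Bub1b*, *Bub3*, *Ttk*, *Zw10*, *Mad1l1*, *Mad2l1*, *Bub1*, *Cenpe*, with ranges apart between *Bub1b* and *Bub3* and between *Mad2l1* and *Bub1*. FPKM was above 0 in every library for 6 of the 8 genes; *Bub1* and *Cenpe* were the exceptions.

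**Figure D1:**
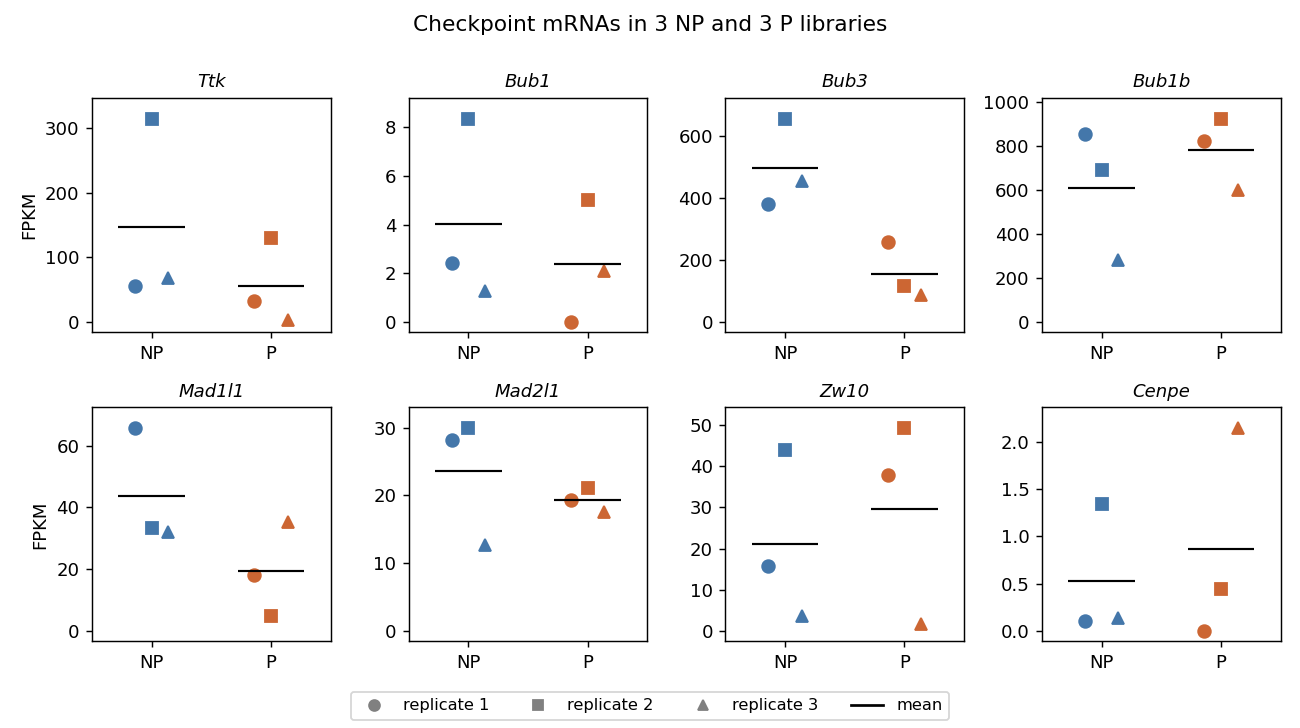
FPKM of the 8 checkpoint genes (vertical axes, linear, each with its own scale) in the 3 NP and 3 P libraries; the symbol gives the replicate and the line the mean. *Bub3* is the gene whose P libraries in FPKM as deposited, at 86.4 to 258 FPKM, all sit below its NP libraries, at 380 to 656 FPKM.

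The limma test of P against NP used log2(FPKM + 1), which makes changes of low genes look smaller, with Benjamini-Hochberg adjustment over the 10578 genes with a mean above 1 FPKM in either fraction. Of the 8 genes 7 passed this filter, and *Cenpe* did not. None of the 7 passed the adjusted p of 0.1, against 1.82% of all genes tested, and 1 (*Bub3*) had an unadjusted limma p under 0.05, against 15.8% of all genes. The median log2 ratio of all genes tested was -1.03, and that of the 7 checkpoint genes was -0.66. *Bub1b* and *Zw10* had log2 ratios above 0, as had 19.9% of all genes. In 1 of the 7 (*Bub3*) every P library was below every NP library, against 23.2% of all genes, and in none of them was every P library above every NP library, against 0.633%. These counts hold for FPKM as deposited. After median-of-ratios scaling, every P library was below every NP library in none of the 7, against 12.1% of all genes, and above in *Bub1b* and *Mad2l1*, against 3.61%. After scaling to a common sum, none of the 7 was below, against 12.4% of all genes, and *Bub1b* was above, against 3.02%. For 1 gene, 3 libraries against 3, taken as unpaired, allow an exact permutation p of 0.1 at the lowest. A permutation within replicate numbers, which was not made, could not go as low. With the replicate number as a block, 6.31% of all genes and none of the 7 checkpoint genes passed by limma. The study's methods describe 1 NP and 1 P pool from every sample, although no source says in words that equal numbers mark 1 sample. Nothing in the sources says whether libraries of a fraction came from separate groups of females, so these p-values measure the spread between libraries.

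*Bub1b*, the gene with the highest mean in both fractions, encodes BUBR1, which occupies CDC20 in the checkpoint complex and also helps to stabilise attachments (chromosome 2, 118598211 to 118641591, GRCm38, 23 exons). It was at 855, 692 and 282 FPKM in NP replicates 1, 2 and 3 and at 821, 924 and 599 FPKM in P. The P values lay within a 1.54-fold range and overlapped those of NP, of which replicate 3 was the lowest of all 6. With median-of-ratios scaling the values were 463, 372 and 298 in NP and 877, 1252 and 1023 in P, which do not overlap. The means were 610 ± 296 FPKM in NP and 781 ± 166 in P (SD, n = 3 each). The log2 ratio of P over NP was 0.48 (95% interval -0.73 to 1.69, adjusted p = 0.658 by limma), higher than in 88.9% of the genes tested, and it was -0.00085 without NP replicate 3. After median-of-ratios scaling, quantile normalization and scaling to a common sum it was 1.48, 1.52 and 1.41. In every library *Bub1b* ranked high, from the top 0.126% of the genes listed above 0 in P replicate 2 to the top 4.29% in NP replicate 3. An estimated 574 reads stood behind its value in P replicate 1 and 53478 in NP replicate 2.

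*Bub3* encodes the WD-repeat protein that carries BUB1 and BUBR1 to the kinetochore (chromosome 7, 131560391 to 131571898, 8 exons). It was at 380, 656 and 454 FPKM in NP replicates 1, 2 and 3 and at 258, 115 and 86.4 FPKM in P. All P values were below all NP values, and replicate 1, the highest of P, was nearest to NP. This separation ended with scaling, since P replicate 1 was then above NP replicate 1, at 276 against 206 after median-of-ratios scaling and at 356 against 292 after scaling to a common sum. The means were 496 ± 143 FPKM in NP and 153 ± 92.3 in P (SD, n = 3 each). P over NP was -1.81 on the log2 scale (95% interval -3.24 to -0.39, adjusted p = 0.207 by limma, exact permutation p = 0.1). Since most genes were lower in P, the ratio was -0.78 relative to the median of all genes, and between -1.26 and -0.092 under the alternatives. Not set against the median, it was under the same 3 scalings -0.82, -0.74 and -0.88. The oocytes were pooled, so it cannot be told whether the difference was alike in all of them.

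A ratio of both genes within a library does not depend on how that library was scaled. *Bub1b* was 2.25, 1.06 and 0.621 times the level of *Bub3* in NP replicates 1, 2 and 3, and 3.18, 8.06 and 6.94 times in P. The ratio was higher in all P libraries than in any NP library, by 2.30 on the log2 scale, with an exact permutation p of 0.1. This is the smallest that 3 libraries against 3 allow when replicate numbers are ignored. Ratios to *Bub3* separated in this direction for 15.5% of the 4527 genes listed above 0 in all libraries, so the separation is not rare among genes. *Mad2l1* and *Cdc20* also separated from *Bub3* this way, by 1.63 and 1.38 on the log2 scale, although for *Mad2l1* NP replicate 1 and P replicate 1 were nearly tied, at 0.0743 and 0.0751 times *Bub3*, while the ratios of *Mad1l1*, *Ttk* and *Zw10* to *Bub3* overlapped. As a share of the FPKM of the 8 genes, *Bub1b* took 60.9%, 38.9% and 33.0% in NP and 69.2%, 74.0% and 80.1% in P, and *Bub3* took 27.1%, 36.8% and 53.2% in NP and 21.8%, 9.18% and 11.5% in P. Since both genes hold most of the sum, their shares are tied to each other and to the ratio of *Bub1b* to *Bub3*.

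**Figure D2:**
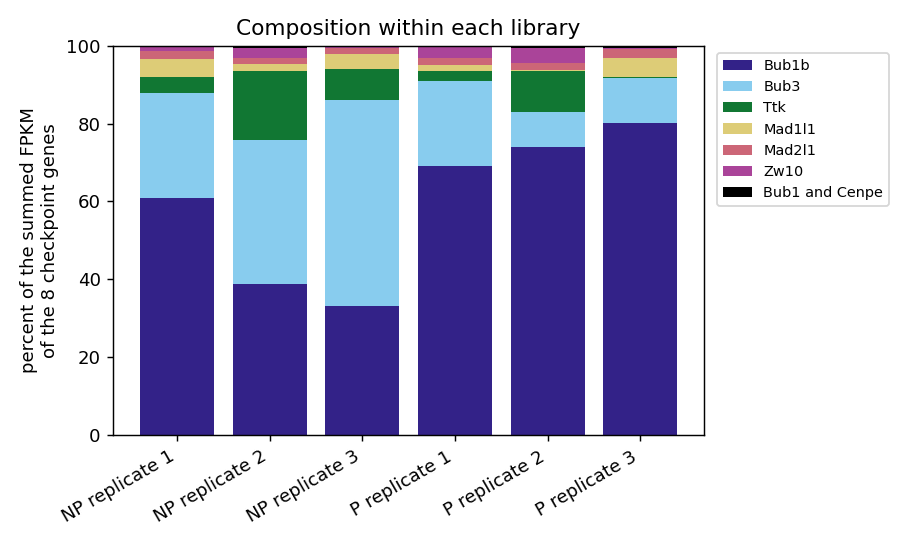
Percent of the summed FPKM of the 8 checkpoint genes (vertical axis) taken by each gene in each of the 6 libraries (bars). The share of *Bub1b* lies between 33.0% and 60.9% in NP and between 69.2% and 80.1% in P.

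*Mad2l1* encodes MAD2, which changes shape to bind CDC20 (chromosome 6, 66535390 to 66541033, 5 exons). It was at 28.2, 29.97 and 12.7 FPKM in NP replicates 1, 2 and 3 and at 19.4, 21.1 and 17.6 FPKM in P. The P libraries lay close together, within a 1.2-fold range inside that of NP, with an estimated 27 reads behind P replicate 1. The means were 23.6 ± 9.50 FPKM in NP and 19.4 ± 1.75 in P (SD, n = 3 each). Its log2 ratio was -0.19 (95% interval -2.31 to 1.93, adjusted p = 0.936 by limma), and its residual SD of 0.47 was lower than that of all but 4.02% of the genes tested. It was 0.77, 0.85 and 0.70 under the 3 scalings, which moved the median of all genes from -1.03 to -0.37, -0.22 and -0.43. Relative to that median it was 0.84, and between 0.34 and 1.54 under the alternatives. *Bub1b* stood at 30.3, 23.1 and 22.1 times the level of *Mad2l1* in NP and at 42.3, 43.8 and 34.1 times in P, a pair chosen after the values were seen. Ratios to *Mad2l1* separated the fractions in this direction for 2.41% of genes. The ratio of *Bub1b* to *Cdc20* overlapped, at 25.03, 19.2 and 8.09 in NP and 20.9, 59.7 and 21.4 in P, as did those of *Mad2l1* to *Cdc20* and of *Mad1l1* to *Mad2l1*.

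*Mad1l1*, whose product MAD1 anchors MAD2 at unattached kinetochores, lies on chromosome 5 (140008689 to 140321552, minus strand, 18 exons). It was at 65.8, 33.3 and 32.1 FPKM in NP replicates 1, 2 and 3 and at 18.0, 4.91 and 35.2 FPKM in P. P replicate 3 lay above 2 of the NP libraries, and the other P libraries lay below all of NP. The values in P replicates 1 and 2 rest on an estimated 11 and 20 reads. With a log2 ratio of -1.41, the 95% interval ran from -3.57 to 0.76 (adjusted p = 0.487 by limma). It was -0.69 without P replicate 2 and -2.0 without P replicate 3, and -0.45, -0.60 and -0.53 under the 3 scalings. The means were 43.7 ± 19.1 FPKM in NP and 19.4 ± 15.2 in P (SD, n = 3 each). *Mad1l1* and *Mad2l1* had nearly equal means in P, while in NP no *Mad1l1* value was below a *Mad2l1* value.

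*Ttk*, encoding the MPS1 kinase (chromosome 9, 83834689 to 83872390, 22 exons), was at 55.6, 315 and 68.0 FPKM in NP replicates 1, 2 and 3 and at 31.5, 130 and 3.56 FPKM in P. Replicate 2 was the highest library of both fractions, and the P libraries spanned a 36.6-fold range. Its log2 ratio was -2.0 (95% interval -4.29 to 0.30, adjusted p = 0.380 by limma). It ranged from -3.14 without P replicate 2 to -0.72 without P replicate 3, and it was -1.05, -0.66 and -1.09 under the 3 scalings. The means were 146 ± 146 FPKM in NP and 55.0 ± 66.4 in P (SD, n = 3 each). An estimated 25 and 27 reads stood behind the values in P replicates 1 and 3.

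*Zw10*, a subunit of the complex that also recruits dynein (chromosome 9, 49055581 to 49078772, 16 exons), was at 15.9, 43.9 and 3.64 FPKM in NP replicates 1, 2 and 3 and at 38.0, 49.3 and 1.78 FPKM in P. Replicate 3 was the lowest library of both fractions. In P replicates 1 and 3 the values rest on an estimated 24 and 11 reads. The log2 ratio was 0.21 (95% interval -2.41 to 2.83, adjusted p = 0.941 by limma), with a residual SD larger than that of 88.5% of genes, and it ranged from -0.65 without NP replicate 3 to 1.54 without P replicate 3. Under the 3 scalings it was 1.1, 1.52 and 1.07. The means were 21.2 ± 20.6 FPKM in NP and 29.7 ± 24.8 in P (SD, n = 3 each).

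*Bub1*, the kinase that marks centromeric histone H2A for shugoshin (chromosome 2, 127801122 to 127831865, minus strand, 25 exons), was at 2.41, 8.36 and 1.27 FPKM in NP replicates 1, 2 and 3, from 13, 658 and 67 reads. P replicate 2 held 5.03 FPKM (25 reads), P replicate 3 held 2.08 FPKM (14 reads), and P replicate 1 was listed at 0. At the depth of P replicate 1, 3 reads would be worth 4.21 FPKM, which is the upper limit that a value of 0 allows there, counting error alone. Its log2 ratio was -0.66 (95% interval -3.11 to 1.80, adjusted p = 0.784 by limma), and it was 0.047 without P replicate 1. The mean of *Bub1* in NP was 4.01 ± 3.81 FPKM (SD, n = 3), far below that of its paralogue *Bub1b* in every library.

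*Cenpe*, encoding a kinetochore kinesin that moves chromosomes to the spindle equator (chromosome 3, 135212563 to 135273540, 46 exons), had the lowest mean of the 8 genes in both fractions, although in P replicate 3 it was above *Bub1* and *Zw10*. It was at 0.103, 1.34 and 0.137 FPKM in NP replicates 1, 2 and 3, and at 0.448 and 2.15 FPKM in P replicates 2 and 3. P replicate 1 was listed at 0, which allows up to 2.13 FPKM (3 reads). Only NP replicate 2 and P replicate 3 were above 1 FPKM, and no test was made.

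**Figure D3:**
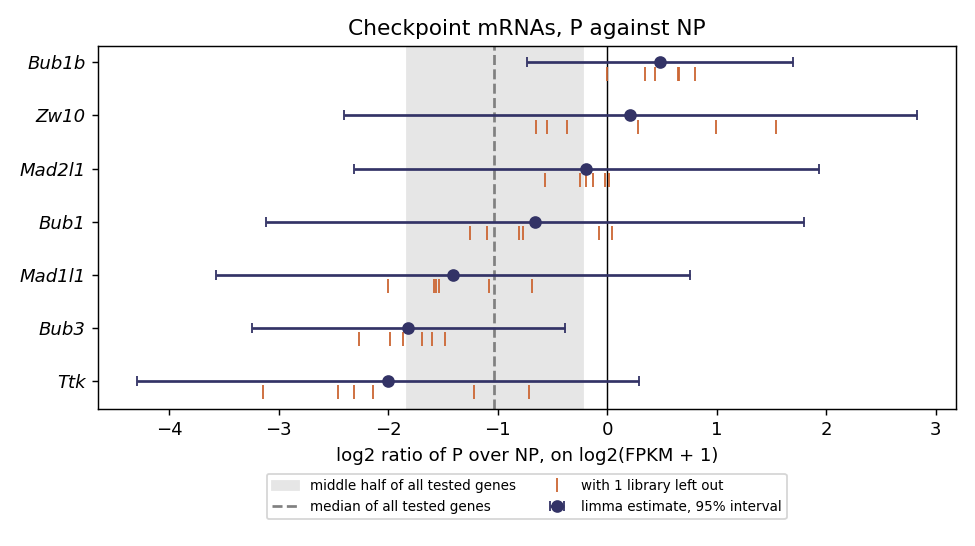
Log2 ratio of P over NP for the 7 tested checkpoint genes (points, limma estimate; bars, 95% interval; ticks, estimates with 1 library left out). The dashed line is the median of all tested genes at -1.03 and the grey band their quartiles; *Bub1b* sits highest at 0.48 and *Ttk* lowest at -2.0.

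Reads of *Mad1l1* share 37 exon bases with *Gm16121* on the opposite strand. *Bub3*, *Mad2l1* and *Cenpe* have copies elsewhere that match at least 100 bases at 90% identity or more. The longest match was 793 bases at 92.9% identity for *Bub3*, 571 bases at 92.1% for *Mad2l1* and 851 bases at 92.8% for *Cenpe*. How the counting split such reads is not given in the sources used here, so these 3 levels are less certain. No other gene reached that match for *Bub1b*, *Bub1*, *Ttk*, *Zw10* or *Mad1l1*.

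Over the 6 libraries, the genes whose log2(FPKM + 1) was most like that of *Bub1b* were *Ppp6r3*, *Arih1* and *Fzd3*, with Pearson's r of 0.987, 0.987 and 0.984. All 3 had their lowest value in NP replicate 3, as *Bub1b* had. With 6 libraries, 85 of the genes tested reached an r of 0.9. Between checkpoint genes r was highest for *Mad2l1* with *Bub1b*, at 0.74, and lowest for *Mad1l1* with *Zw10*, at -0.49.

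The partners of the checkpoint were read from 6 lists with 45 genes, of which 43 were found and 39 tested. One, *Ube2c*, passed the threshold, lower in P, where 1.8% of all genes passed in that direction, and none passed higher in P (0.0189% of all genes). The median log2 ratio of the 39 genes was -0.43, against -1.03 over all genes tested. A ratio above 0 was found in 15 of them, against 19.9% of all genes. *Ube2c*, the ubiquitin-conjugating enzyme that works with the APC/C, was at 99.7, 129 and 72.3 FPKM in NP replicates 1, 2 and 3 and at 4.70, 10.4 and 4.22 FPKM in P. The values of the fractions were far apart, and the log2 ratio was -3.82 (adjusted p = 0.0706 by limma). Reads of *Ube2c* were not estimated, but 3 reads over 2 kb of exons were worth 9.17 FPKM in P replicate 1, above its value there. The log2 ratio was negative under each of the 11 alternatives that can change it. The adjusted p ranged from 0.0331 to 0.563 over all alternatives and was 0.395, 0.417 and 0.165 without NP replicate 1, 2 and 3. Its partner enzyme *Ube2s* was at 120 ± 15.2 FPKM in NP and 130 ± 58.3 in P (SD, n = 3 each).

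*Cdc20*, the target of the checkpoint, was at 34.2, 36.0 and 34.8 FPKM in NP replicates 1, 2 and 3 and at 39.2, 15.5 and 27.99 FPKM in P. NP libraries were nearly equal, and P values lay on both sides of them. The log2 ratio was -0.43 (standard error 0.97, adjusted p = 0.834 by limma), and it was above 0 under the 3 scalings, at 0.54, 0.58 and 0.48. Among 18 genes found of the APC/C list, 16 were tested and their median log2 ratio was -0.30, from *Ube2c* to *Anapc1*, the largest subunit, at 1.31 (standard error 1.09, adjusted p = 0.521 by limma). Without NP replicate 3, the lowest library, it was 0.16. *Anapc1* was at 54.0, 29.8 and 2.77 FPKM in NP replicates 1, 2 and 3 and at 54.8, 40.6 and 40.7 in P.

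Of the substrates of the APC/C, *Pttg1*, which encodes securin, had the highest log2 ratio, 1.28 (standard error 0.90, adjusted p = 0.466 by limma), and *Ccna2*, which encodes cyclin A2, the lowest, -1.88 (standard error 1.36, adjusted p = 0.476 by limma). *Ccna2* was at 53.6, 43.5 and 3.95 FPKM in NP replicates 1, 2 and 3 and at 5.22, 37.7 and 0 FPKM in P, and its ratio ranged from -3.20 without P replicate 2 to -0.56 without P replicate 3. *Pttg1* was at 26.3, 26.3 and 69.4 FPKM in NP replicates 1, 2 and 3 and at 134, 50.8 and 106 FPKM in P. The fractions overlapped through NP replicate 3 and P replicate 2. The median of the 4 substrates was -0.70.

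In the outer kinetochore list all 9 genes were tested, with a median log2 ratio of -0.42, and none passed the threshold. *Nuf2*, part of the NDC80 complex that grips microtubules, was highest at 1.78 (standard error 1.25, adjusted p = 0.466 by limma), with 20.8, 4.57 and 0.930 FPKM in NP replicates 1, 2 and 3 and 44.3, 32.8 and 5.20 in P. Its ratio was 0.94 without NP replicate 3 and 2.69 without NP replicate 1. *Nsl1*, of the MIS12 complex, was at 6.20, 11.8 and 8.52 FPKM in NP and listed at 0 in all P libraries (adjusted p = 0.162 by limma, and 0.0808 with the replicate number as a block). In P replicate 1, 3 reads over 2 kb of exons would be worth 9.17 FPKM, so a 0 there does not show absence. *Knl1*, the scaffold that receives BUB1 and BUB3, listed as *Casc5*, was at 0.0946, 0.259 and 0.0193 FPKM in NP. Its value in P was 7.15 FPKM in replicate 1 and 0.308 FPKM in replicate 2, and replicate 3 was listed at 0.

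For the complex of *Zw10*, *Zwilch* was at 3.96, 3.46 and 8.20 FPKM in NP replicates 1, 2 and 3 and at 1.43, 3.68 and 0 in P. *Kntc1*, which encodes ROD, was at 5.69, 7.86 and 2.03 FPKM in NP, and in P it was at 17.5 FPKM in replicate 2 and listed at 0 in the others. The kinetochore protein gene *Zwint* had a log2 ratio of -0.16 (adjusted p = 0.961 by limma), which was 0.70, 0.72 and 0.47 under the 3 scalings. The median of the 3 tested genes of this list was -1.09. Of the genes that take MAD2 out of its active form, *Mad2l1bp* was at 3.18, 14.8 and 1.56 FPKM in NP and at 1.53 FPKM in P replicate 3 alone, a log2 ratio of -2.02 (adjusted p = 0.377 by limma) that was -1.26 without NP replicate 2. *Trip13* was above 0 in replicate 2 of each fraction alone, at 1.19 FPKM in NP and 0.773 in P, and was not tested.

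In the list of the Aurora kinase complex and shugoshins, 6 of 7 genes were tested, with a median of -0.37. *Sgo1*, listed as *Sgol1*, which guards centromeric cohesion, was highest at 0.50 (adjusted p = 0.792 by limma), on a value of 7.13 FPKM in P replicate 2 alone. *Incenp*, the scaffold of the complex, was lowest at -2.29 (standard error 1.15, adjusted p = 0.335 by limma), with 40.4, 17.2 and 15.6 FPKM in NP replicates 1, 2 and 3 and 1.90, 5.17 and 5.02 in P, all below NP.

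**Figure D4:**
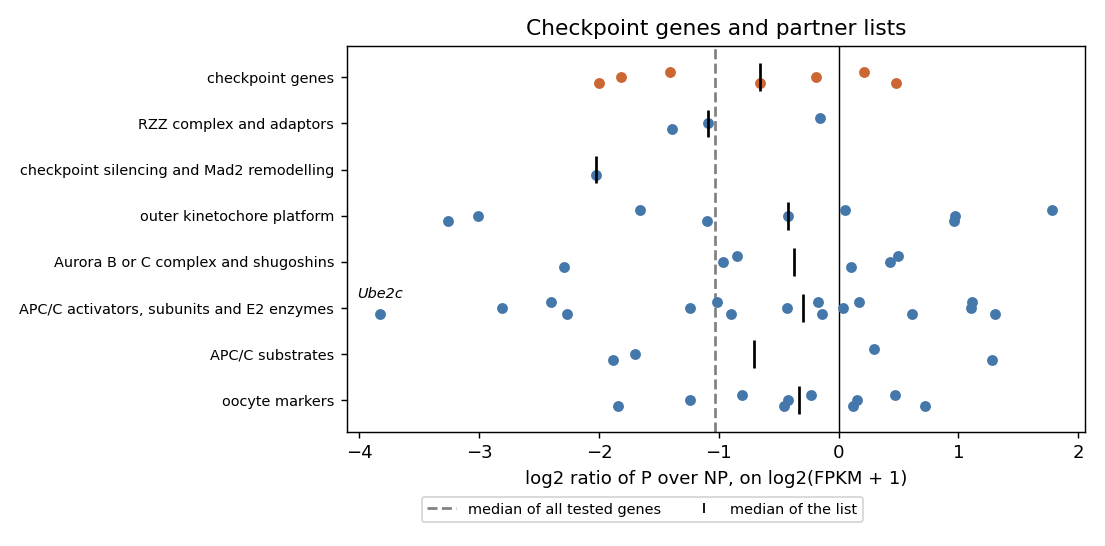
Log2 ratio of P over NP for each tested gene (points) of the checkpoint genes, the 6 partner lists and the oocyte markers, with the median of each list (bar) and of all tested genes (dashed line, -1.03). *Ube2c*, at -3.82, is the gene past the threshold.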

How the data were processed

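FPKM per gene in 3 NP and 3 P libraries were used as deposited. Reads were trimmed by the authors (Trim Galore 0.4.1), mapped to GRCm38 (HISAT2 2.0.5) and quantified as FPKM in Seqmonk. RNA had been depleted of rRNA and amplified as a whole transcriptome. For annotation release, strandedness and filtering of reads, nothing is given in the sources used here. Columns with the authors' mean FPKM of each fraction were not used. Of 25965 rows, 58 symbols were duplicated, and the row with the highest mean was kept.

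Differences of P from NP were tested by limma 3.58.1 (R 4.3.3), two-sided, on log2(FPKM + 1), letting the variance prior follow the mean level, Benjamini-Hochberg adjusted over all genes with a mean above 1 FPKM in either fraction, threshold 0.1. Depth was recovered from FPKM times exon length (GENCODE M21), where the step between low values is 1 read. Between 58.2% and 65.3% of values up to 10 reads were whole within 0.02 reads. Gene spans equalled those of GENCODE M21 for *Mad1l1*, *Bub1* and *Bub1b*, so reads of the other genes are less certain. Depths and reads are therefore estimates. Limits at 0 are 3 reads and hold for counting error alone, as whole transcriptome amplification copies molecules. Sequences came from GENCODE transcripts, compared by BLAST 2.17.0. Protein sequences were not used here. Named partners are those past the threshold, the highest and lowest ratio of each list, and *Cdc20*, *Knl1*, *Trip13*, *Mad2l1bp*, *Zwilch* and *Kntc1*. *Ube2s* was picked after its values were seen. Members and lists were chosen with earlier results of these data known. Alternatives were other pseudocounts, filters, scalings, no trend, a replicate block, a stricter threshold and each library left out.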

Additional observations from a re-analysis of the deposited data

How the results depend on the processing

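None of the checkpoint genes passed the adjusted p of 0.1 by limma under any alternative, and the lowest adjusted p was 0.147 (*Bub3*, replicate block); at an unadjusted p under 0.05 there were 0 to 2. The count over all genes, 192 (2 higher and 190 lower in P), stayed within 1.5 times under a pseudocount of 5 (156), a mean above 5 FPKM (210) and without P replicate 1 (240) or P replicate 2 (156). The 1 partner gene was the count with that pseudocount, with that filter and without P replicate 2 or P replicate 3. A pseudocount of 0.1 gave 69 genes (67 lower) and 0 partners, an adjusted p of 0.05 gave 65 (63 lower) and 0, and no trend gave 15 (0 higher, 15 lower) and 0. No filter gave 0 (0 higher, 0 lower) and 0 partners, although 1759 genes had an unadjusted p under 0.05. After median-of-ratios scaling there were 3 (1 lower) and 0 partners, quantile normalization 4 (2 lower) and 0, and the common FPKM sum 7 (5 lower) and 0. With 1 library left out the count ranged from 1 to 331, with 0 to 4 higher and 1 to 328 lower, and 0 to 2 partners; it was 4, 12 and 1 without NP replicate 1, 2 and 3 and 331 without P replicate 3. The cause was not tested.

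The replicate block gave 668 genes (5 higher, 663 lower) and 3 partners, *Ube2c*, *Nsl1* and *Anapc5*. Each sample was pooled into NP and P by the study's methods, but no source says in words that equal numbers mark one gradient. Deviations from the fraction means correlated at 0.0634, 0.0991 and 0.116 between libraries of one number, between -0.0886 and 0.0208 otherwise, and every library correlated best with its own number. Because deviations within a fraction sum to 0, higher values for some pairs force lower ones for others, so this contrast is partly built in. With 3 libraries in each fraction, few arrangements are possible.

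Log2 ratios that reversed under median-of-ratios scaling, quantile normalization and the common sum were *Mad2l1* (0.77, 0.85, 0.70), *Zwint* (0.70, 0.72, 0.47) and *Cdc20* (0.54, 0.58, 0.48), and under the first 2 *Bub1* (0.086, 0.43). A pseudocount of 5 gave *Zwint* 0.10. With a library left out, *Mad2l1* ranged from -0.57 to 0.019, *Bub1* from -1.25 to 0.047, *Bub1b* from -0.00085 to 0.80, *Zw10* from -0.65 to 1.54 and *Zwint* from -1.29 to 0.97. These 3 scalings moved the median log2 ratio of all genes from -1.03 to -0.37, -0.22 and -0.43. *Bub3* (-2.27 to -0.74), *Mad1l1* (-2.0 to -0.45) and *Ttk* (-3.14 to -0.66) kept their sign under the 11 alternatives that can change a ratio. These are the other pseudocounts, the scalings and the libraries left out. Relative to the median of all genes, *Bub3* ran from -1.26 to -0.092, *Mad1l1* from -1.06 to 0.51, *Ttk* from -1.94 to 0.22 and *Bub1* from -0.070 to 1.08, while *Mad2l1* (0.34 to 1.54), *Bub1b* (0.99 to 2.21) and *Zw10* (0.65 to 2.48) stayed above it. Depth was lowest in P replicate 1, where *Bub1* and *Cenpe* were listed at 0.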
